A study of Caenorhabditis elegans with 4 samples.

Results

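NURF-1 peaks on chromosome II are the rows of the authors' series-wide peak list that lie on this autosome: 1149 of 7512 peaks in all. Each was assigned by its midpoint to the centre of the chromosome (the middle 50% of its length), its left arm or its right arm (the outer 25% on either side). The peaks were set against 996 peaks on chromosome II in the list of ChIP replicate 1 (6320 in all) and 843 in the list of ChIP replicate 2 (5357 in all). The other 4 autosomes, I, III, IV and V, held 5560 series-wide peaks and served as background. The lists come from chromatin immunoprecipitation followed by sequencing (ChIP-seq) with the affinity-purified rabbit polyclonal antibody SDQ3525 against NURF-1. It was applied to whole Caenorhabditis elegans L3 larvae of the wild-type strain N2, males and hermaphrodites mixed, raised at 20 degrees Celsius. All 4 samples share this strain, genotype, stage and temperature: 2 are NURF-1 ChIPs and 2 are input DNA, and the input samples were not analysed here. The labels do not say whether the ChIP replicates came from separate cultures, and whole larvae mix all tissues.

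NURF-1 corresponds to BPTF, the largest protein of NURF, a complex that remodels chromatin. It works with an ISWI-type ATPase to slide nucleosomes, and BPTF binds histone H3 that carries a mark of active promoters. Worm autosomes have a central region that is rich in conserved genes and recombines little, flanked by arms that recombine often and carry more repeats and more chromatin marked by H3K9 methylation. The left end of chromosome II also carries its pairing centre, the repeat-rich stretch at which the homologous chromosomes meet in meiosis. Positions below are 1-based on WormBase WS220, no peak was assigned to a gene, and the scale of the authors' peak score is not given. Peaks called higher-scored lie above the median score of their whole list, and the rest are lower-scored.

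Peaks lay thinly on the left arm of chromosome II and densely on its right arm. The centre held 599 peaks, the left arm 190 and the right arm 360. This amounts to 78.4 peaks per Mb in the centre (exact Poisson 95% interval 72.3 to 84.9), 49.7 in the left arm (42.9 to 57.3) and 94.2 in the right arm (84.8 to 104.5). The interval of the left arm lay apart from the other two, and those of the centre and the right arm just overlapped. These intervals cover counting error only and treat neighbouring peaks as independent. The left arm thus held 0.528 times as many peaks as the right arm. Both replicates had the same order between the arms: 160 peaks on the left and 301 on the right in replicate 1 (ratio 0.532), and 135 and 226 in replicate 2 (ratio 0.597). The order of the centre and the right arm was not shared by all lists. Replicate 1 had 70.0 peaks per Mb in the centre and 78.8 in the right arm, while replicate 2 had 63.1 and 59.2.

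The difference between the arms held for strong and weak peaks alike. Higher-scored peaks numbered 24.3 per Mb in the left arm and 40.6 in the right arm, a ratio of 0.600. Lower-scored peaks numbered 25.4 and 53.7 per Mb, a ratio of 0.473. In replicate 1 the left to right ratio was 0.613 for higher-scored and 0.475 for lower-scored peaks, and in replicate 2 it was 0.622 and 0.574. In each list the ratio was thus further from 1 among the lower-scored peaks. With neighbours under 2000 bp apart joined, the left arm held 144 separate sites and the right arm 224.

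**Figure D1:**
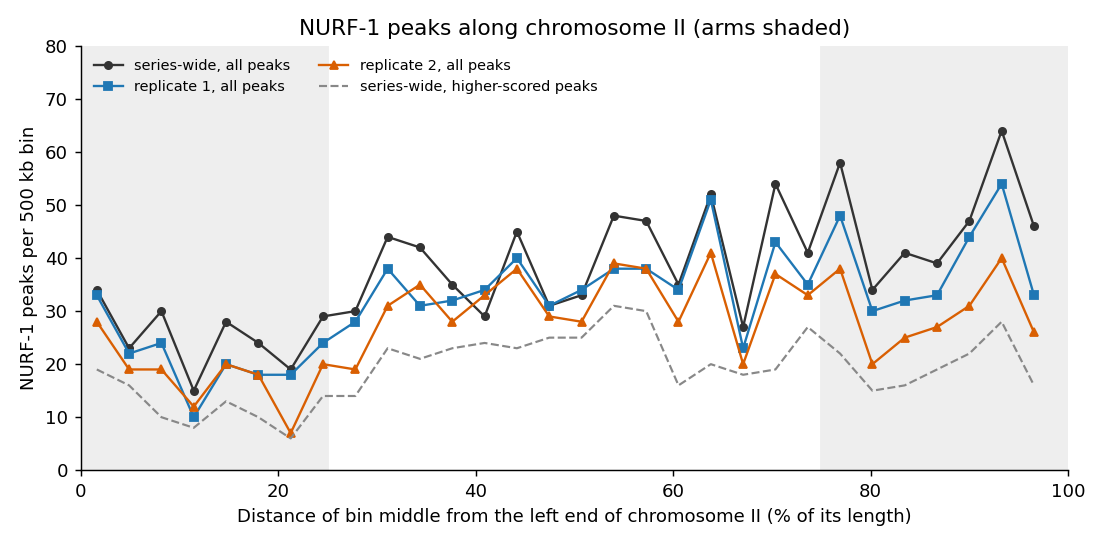
Number of NURF-1 peaks in each of the 30 full 500 kb bins of chromosome II against the distance of the bin's middle from the left end, for the series-wide list (circles), replicate 1 (squares) and replicate 2 (triangles), with higher-scored series-wide peaks as a dashed line and the arms shaded. Bins of the left arm hold 15 to 34 series-wide peaks and bins of the right arm 34 to 64.

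Seen in bins of 500 kb, the left and the right arm barely met. The 7 full bins of the left arm held 34, 23, 30, 15, 28, 24 and 19 series-wide peaks from the left end inwards. The 7 full bins of the right arm held 58, 34, 41, 39, 47, 64 and 46 peaks from the inner edge outwards, so that the fullest left bin equalled the emptiest right bin. The 14 full bins of the centre held between 27 and 54, with a median of 38.5. In the replicate lists the ranges overlapped: the left arm had 10 to 33 peaks per bin and the right arm 30 to 54 in replicate 1, and 7 to 28 and 20 to 40 in replicate 2. Over the 30 full bins of the chromosome, the counts of the replicates had a Spearman's rho of 0.908 and a Pearson's r of 0.895. This is a description of bins that share neighbours, chromatin preparation and sequence content, and not a test.

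The 3 fullest bins lay right of the chromosome's middle. They were 14000001 to 14500000 with 64 series-wide peaks (54 in replicate 1 and 40 in replicate 2), 11500001 to 12000000 with 58 (48 and 38) and 10500001 to 11000000 with 54 (43 and 37). The 3 emptiest all lay in the left arm: 1500001 to 2000000 with 15 peaks (10 and 12), 3000001 to 3500000 with 19 (18 and 7) and 500001 to 1000000 with 23 (22 and 19). The emptiest bin had 0.956% of its sequence under a peak, whereas the 2 fullest had 6.22% and 6.58%. In the series-wide list, strong peaks were frequent in 1 of these sparse bins. In the bin from 500001 to 1000000, 16 of 23 peaks were higher-scored and 17 were found in both replicates. Over all of II, 51.1% of series-wide peaks were higher-scored. The replicate lists did not share this excess clearly. In replicate 1, 12 of 22 peaks of the bin were higher-scored, against 50.1% on II, and in replicate 2, 10 of 19, against 53.6%.

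On the scale of whole arms, the contrast between left and right was wider on chromosome II than on each other autosome, as a description over 5 chromosomes. The left to right ratio of peak density was 0.528 on II, against 1.35 on I, 0.686 on III, 1.38 on IV and 1.08 on V. In replicate 1 it was 0.532 on II, against 0.730 to 1.32 on the other autosomes, and in replicate 2 it was 0.597, against 0.791 to 1.34. Chromosome III was the other autosome with a thinner left arm in all 3 lists. No test sets 1 chromosome against 4, so this order among chromosomes was not tested. The level itself was not extreme: the left arm of II (49.7 per Mb) lay close to the left arm of V (50.3, Poisson interval 44.4 to 56.7) and the right arm of V (46.5, 40.8 to 52.7), while the right arm of II (94.2) lay between those of I (86.3) and III (120.1).

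**Figure D2:**
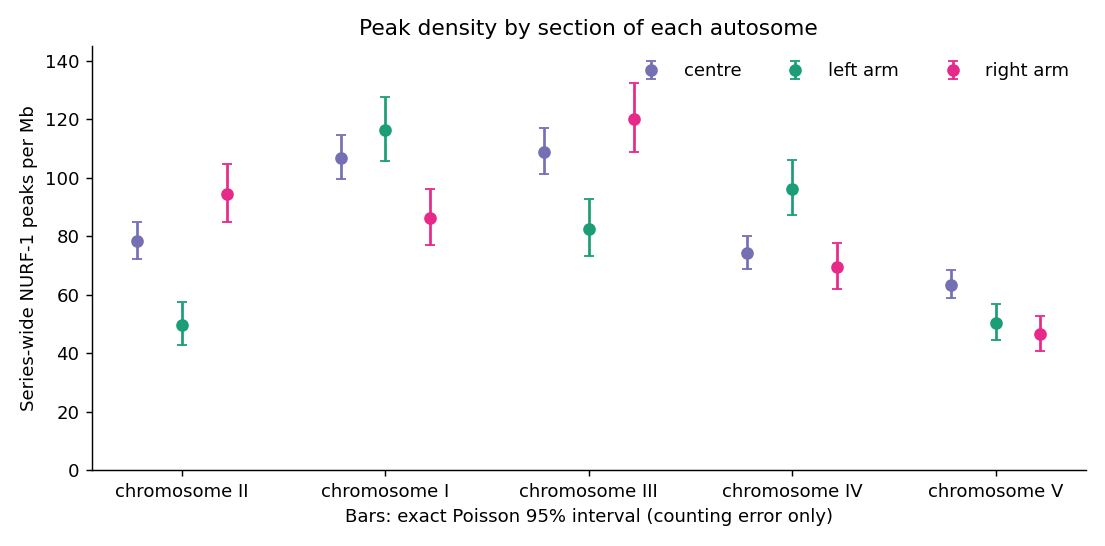
Series-wide NURF-1 peaks per Mb in the centre, left arm and right arm of each autosome, with chromosome II first; points are densities and bars exact Poisson 95% intervals, which cover counting error only. On II the right arm (94.2) is highest and the left arm (49.7) lowest, and I and IV have the reverse order of arms, as does V (50.3 on the left and 46.5 on the right), where the intervals overlap.

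Taken whole, chromosome II carried 75.2 peaks per Mb (70.9 to 79.7), against 82.6 (80.5 to 84.9) over the other autosomes together, a ratio of 0.910. The ratio was 0.937 in both replicate lists. Among single autosomes it lay below I (104.0) and III (105.1), near IV (78.5, interval 74.4 to 82.8) and above V (55.9). The pooled ratio depended on which chromosome it was set against: without V it was 0.794, and without I it was 0.983.

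In each list, the centre of chromosome II exceeded the arms more in strong peaks than in weak ones. All peaks numbered 78.4 per Mb in the centre and 72.0 in the arms together, a ratio of 1.09, which was 1.16 in replicate 1 and 1.34 in replicate 2. Higher-scored peaks numbered 44.4 and 32.5 per Mb, a ratio of 1.37, and lower-scored peaks 34.0 and 39.5, a ratio of 0.861. In replicate 1 the ratios were 1.50 for higher-scored and 0.904 for lower-scored peaks. In replicate 2 they were 1.51 and 1.16, so in that list weak peaks too were denser in the centre. The arms are not alike, so this mean hides their order: for higher-scored peaks the centre (44.4) stood closer to the right arm (40.6) than to the left (24.3). For lower-scored peaks the centre stood between the right arm (53.7) and the left arm (25.4). The corresponding series-wide ratios on the other autosomes together were 1.40 for higher-scored and 0.815 for lower-scored peaks, close to those of II.

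The very strongest sites were even more central. Of the 151 peaks on II that scored 100 or more, 104 lay in the centre, 17 in the left arm and 30 in the right arm. That is 13.6, 4.45 and 7.85 per Mb. On the other autosomes together such peaks numbered 11.1 per Mb in the centres, 7.61 in the left arms and 6.18 in the right arms. Taken singly, the centres of I, III, IV and V had 13.5, 15.4, 9.60 and 7.84 per Mb. Their arms had 9.95, 9.29, 6.52 and 3.44, where the arms of II together had 6.15. Chromosome II held 178 of the 1001 peaks that ranked 1000 or better in the series-wide list (17.8%, Wilson 95% interval 15.5 to 20.3), against 15.3% of all nuclear peaks. The same share was 17.7% in replicate 1 (15.5 to 20.2, against 15.8% of all nuclear peaks) and 18.4% in replicate 2 (16.1 to 20.9, against 15.7%). The lower bounds lay close to the shares of all nuclear peaks, and the top ranks were not tested.

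The highest-scored peak of chromosome II lay in its sparse left arm, at 649926 to 650916. It scored 255 in the series-wide list, 316 in replicate 1 and 313 in replicate 2, and stood second, second and first in these whole lists. Its neighbours were far away, 16292 bp on the left and 43378 bp on the right. The next in the left arm, at 254941 to 255827, scored 179 and ranked 80, and was placed 21 by replicate 1 and 151 by replicate 2. The last 2 of the 4 strongest left peaks, at 1134159 to 1135669 and 1320265 to 1321141, scored 152 and 143 and ranked 237 and 306. The left arm thus had 1 peak at the very top of the list and few behind it.

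In the centre the 4 strongest peaks came close to each other in score. They lay at 9745738 to 9746656 (score 237), 4047717 to 4048637 (216), 5630506 to 5631571 (202) and 7373853 to 7374695 (201). Their ranks in the whole series-wide list were 5, 10, 23 and 27. In replicate 1 they ranked 7, 18, 81 and 73, and in replicate 2 they ranked 22, 13, 34 and 71. The 4 strongest of the right arm were nearly level with each other. They lay at 13871965 to 13872976 (score 198), 14527882 to 14529009 (197), 14561545 to 14562209 (195) and 11979280 to 11980662 (194), and held ranks 31, 33, 35 and 36. All were within the 44 best of replicate 1 and the 56 best of replicate 2. The second and the third of them are neighbours, with no peak in the 32535 bp between them.

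**Figure D3:**
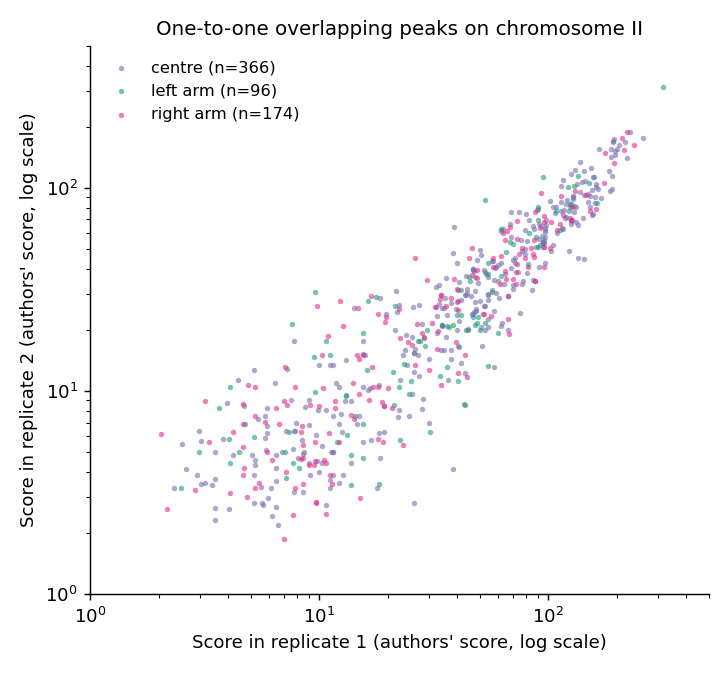
Authors' score in replicate 1 against that in replicate 2, both on log scales, for the 636 pairs of peaks on chromosome II that overlap one to one; each point is a pair, coloured by section. The points narrow towards high scores, and the pair at the upper right corner, in the left arm, scores 316 and 313.

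Where a single peak of each replicate overlapped the other, the replicates ranked the 2 peaks alike. For 636 one-to-one pairs on chromosome II, the midpoints lay 38.5 bp apart in the median, with an upper quartile of 72.5 bp. The pairs were chosen by their overlap, so close midpoints are in part given by construction. Scores had a Spearman's rho of 0.92 over these pairs (0.94 over 366 pairs of the centre, 0.86 over 96 of the left arm and 0.90 over 174 of the right arm). The 3058 such pairs on the other autosomes had nearly the same values, with a median distance of 39 bp and a rho of 0.917. These are descriptions across peaks of the same libraries, and a wider range of scores, as in the centre, can raise rho by itself. The replicate 1 peak was the wider one in 408 of the 636 pairs, with a median width of 496 bp, against 430.5 bp in replicate 2. The sequence under a peak in both replicates came to 315396 bp on this chromosome, which was 68.6% of the peak sequence of replicate 1 and 83.8% of that of replicate 2.

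Most peaks of chromosome II were found again in the other replicate, and nearly all of the strong ones. In replicate 1, 711 of 996 peaks shared at least 1 bp with a replicate 2 peak, 71.4% (Wilson interval 68.5 to 74.1), where 71.7% of all replicate 1 peaks did. In replicate 2, 723 of 843 peaks were found in replicate 1, 85.8% (83.2 to 88.0), against 86.8% of that whole list. Both shares are thus close to those of the series. Among higher-scored peaks, 496 of 499 in replicate 1 and 452 of 452 in replicate 2 had a partner, where 97.98% and 99.8% did on the other autosomes. Among lower-scored ones 43.3% did in replicate 1 and 69.3% in replicate 2, against 45.7% and 74.9% on the other autosomes.

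Reproducibility differed by section in replicate 1 more than in replicate 2. In replicate 1, 76.8% of 535 central peaks were found in replicate 2 (73.1 to 80.2), 66.9% of 160 left peaks (59.3 to 73.7) and 64.1% of 301 right peaks (58.6 to 69.3). In replicate 2 the shares were 86.5% of 482 central peaks, 83.0% of 135 left peaks and 85.8% of 226 right peaks. The other autosomes had a similar pattern, with 77.02%, 64.2% and 67.4% in centre, left and right arms for replicate 1, and 88.4%, 84.3% and 87.1% for replicate 2. Among lower-scored replicate 1 peaks on II, 48.3% of central, 36.9% of left and 39.55% of right peaks were found in replicate 2. For such peaks on the other autosomes the shares were 50.1%, 39.9% and 44.1%. Among higher-scored replicate 1 peaks on II they were 99.3%, 100% and 99.2%. Replicate 2 had fewer peaks than replicate 1 in each section, though not in every 500 kb bin, with the widest gap on the right: its number was 90.1% of replicate 1's in the centre, 84.4% in the left arm and 75.1% in the right arm. On the other autosomes these figures were 90.1%, 77.9% and 79.4%, so the shortfall was larger in arms than in centres there too. The depth of the libraries is unknown.

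**Figure D4:**
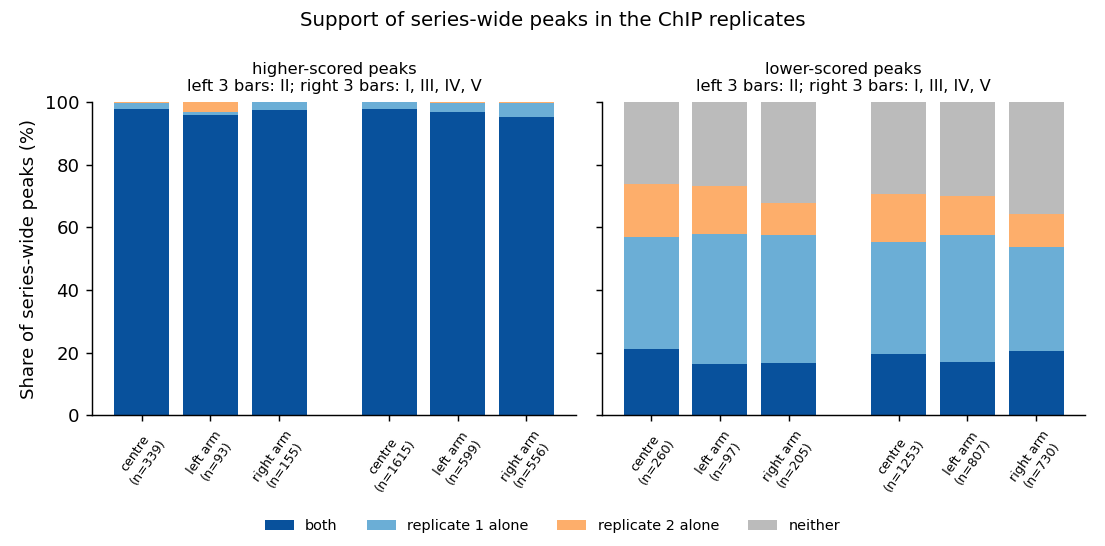
Share of series-wide peaks with an overlapping peak in both replicates, in 1 of them or in neither, for higher-scored peaks (left panel) and lower-scored peaks (right panel), by section of chromosome II and of the other autosomes together. Between 95.7% and 97.6% of higher-scored peaks on II are in both replicates in every section, against 16.5% to 21.2% of lower-scored ones.

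In the series-wide list, 676 of the 1149 peaks on II overlapped a peak in both replicates, 58.8% (Wilson interval 56.0 to 61.6), where 57.9% of all series-wide peaks did. A further 229 were in replicate 1 alone (19.9%, against 19.6% of the whole list), 84 in replicate 2 alone (7.31%, against 6.96%) and 160 in neither (13.9%, against 15.6%). Chromosome II thus had about the support of the series as a whole. By section, 64.4% of central peaks (60.5 to 68.2), 55.3% of left peaks (48.2 to 62.2) and 51.4% of right peaks (46.2 to 56.5) were in both. The centre exceeded the arms together (52.7%) by 11.7 percentage points. The other autosomes had much the same shares, 63.6% in the centres, 51.0% in the left arms and 52.8% in the right arms, so this is not particular to II.

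Within a score class the sections differed less in the support of series-wide peaks. Lower-scored replicate 1 peaks still differed between centre and arms, as given above. Among higher-scored peaks the share in both replicates was 97.6% in the centre and 96.8% in the arms, a difference of 0.866 points. Among lower-scored peaks it was 21.2% and 16.6%, against 19.5% and 18.6% on the other autosomes. All 434 peaks on II that scored 30 or more were in both replicates, as were all 1890 such peaks on the other autosomes. How the series-wide list was made is not given. If it draws on the same libraries, its strong peaks are in part supported by construction.

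Peaks without support were weak and narrow. The 160 found in neither replicate scored 4.08 in the median and were 178.5 bp wide. Those in both scored 49.2 and were 635.5 bp wide, again as medians. The other autosomes were alike: medians were 4.07 and 179 bp for 871 peaks in neither, and 42.2 and 607 bp for those in both. The strongest peak in neither replicate lay at 2599985 to 2600207, in the left arm, with a score of 9.46. The strongest in replicate 1 alone, at 11726408 to 11726712, scored 16.6 in the series-wide list and 16.3 in replicate 1. The strongest in replicate 2 alone, at 1850923 to 1851120, scored 14.5 and 10.4. Not one of the 587 higher-scored peaks was in neither replicate, which allows a share of up to 0.511% by counting error. The count was also 0 among the 2770 higher-scored peaks of the other autosomes.

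Peaks on chromosome II were focal, and those of the centre were the widest. The median width was 398 bp over the chromosome, 482 bp in the centre, 307 bp in the left arm and 371 bp in the right arm. The centre exceeded the arms together (349 bp) by 133 bp, a difference that came to 101 bp by the first replicate's list and 60 bp by the second's. On the other autosomes together, series-wide medians were 453 bp in the centres, 317.5 bp in the left arms and 322 bp in the right arms. The centres there exceeded the arms by 134 bp, so wider central peaks were not particular to II. Width went with score (Spearman's rho 0.76 over the 1149 peaks). Within the higher-scored class, median widths were 689 bp, 592 bp and 610 bp in the centre, the left arm and the right arm. Within the lower-scored class they were 235.5 bp, 201 bp and 240 bp. The order within a class was not shared by the replicates. Higher-scored peaks had medians of 616 bp, 599.5 bp and 563 bp in replicate 1, and 568.5 bp, 528 bp and 588 bp in replicate 2. Lower-scored peaks had 228.5 bp, 210.5 bp and 219 bp in replicate 1, and 220 bp, 201 bp and 228 bp in replicate 2.

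Peaks of 1000 bp or more made up 104 of 1149 on II (9.05%), where 7.64% of the whole series-wide list were as wide. They numbered 60 in the centre, 13 in the left arm and 31 in the right arm. The widest on II lay in the right arm at 11757657 to 11761981 and covered 4325 bp with a score of 49.8. It was broken into 3 peaks in replicate 1 and 2 in replicate 2, the strongest of which were 2813 bp and 823 bp wide. The next widest were at 8743247 to 8746203 in the centre (2957 bp, score 35.8), at 694295 to 696644 in the left arm (2350 bp, score 31.8) and at 6346785 to 6349091 in the centre (2307 bp, score 17.6). The last was 4 separate peaks in each replicate. None of these wide peaks was among the strongest, and the best of them was rank 334 by score on the chromosome.

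Such merging of neighbours was uncommon. Of the 1149 series-wide peaks on II, 852 overlapped 1 peak of replicate 1, 46 overlapped 2, 7 overlapped 3 or more and 244 overlapped none. For replicate 2 these numbers were 701, 55, 4 and 389. Of series-wide peaks on II, 4.003% overlapped 2 replicate 1 peaks and 0.6092% overlapped 3 or more, against 3.345% and 0.3597% on the other autosomes. For replicate 2 these shares of series-wide peaks were 4.787% and 0.3481% on II, against 3.759% and 0.6655%. The series-wide peaks on II that overlapped 2 replicate peaks had median widths of 967 bp for replicate 1 and 981 bp for replicate 2.

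**Figure D5:**
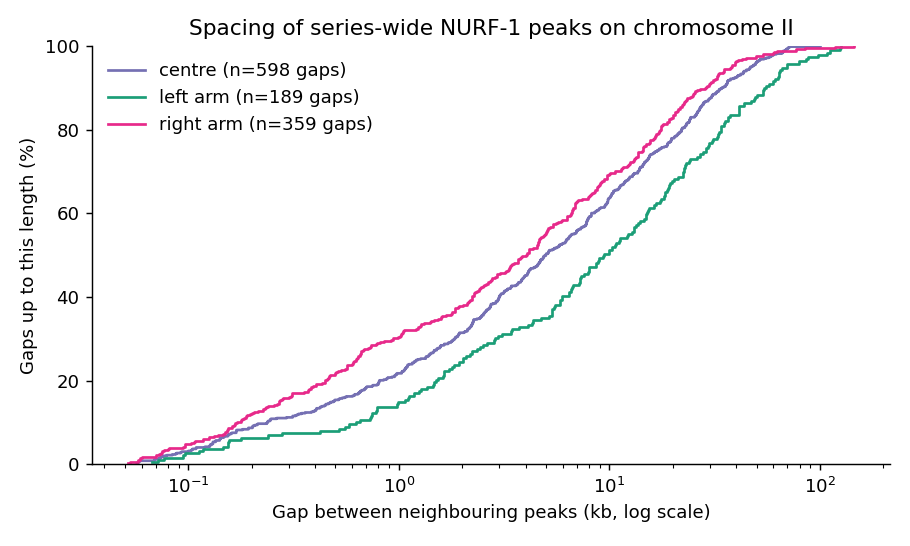
Cumulative share of the gaps between neighbouring series-wide peaks on chromosome II by gap length (kb, log scale), for 598 gaps of the centre, 189 of the left arm and 359 of the right arm. The curve of the left arm lies furthest to the right, with a median gap of 9429 bp, against 4013 bp in the right arm.

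Spacing set the 2 arms apart in the same way as density. The median gap between neighbouring peaks was 5159 bp on chromosome II and 4680 bp on the other autosomes together. It was 4983 bp in the centre, 9429 bp in the left arm and 4013 bp in the right arm. In replicate 1 the section medians were 5825.5, 10919 and 4879.5 bp, and in replicate 2 they were 7262, 13993 and 6948 bp, so the order was the same in all 3 lists. Close neighbours were common: 32.2% of all gaps on II were under 2000 bp, against 33.9% on the other autosomes. The share was 31.4% in the centre, 24.3% in the left arm and 37.9% in the right arm. The gaps that cross a section edge were left out of the section values.

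Long empty stretches took up more of the left arm than of the other sections. Gaps of at least 50 kb between series-wide peaks took up 43.9% of the left arm in 22 gaps, against 18.7% of the right arm in 9 gaps, and 19.1% of the centre in 23 gaps. The share of the left arm was close to that of the left arm of V (42.7%) and below that of the right arms of IV (50.5%) and V (53.7%). Gaps of at least 50 kb that held no peak in any of the 3 lists numbered 52 on the chromosome and came to 3.75 Mb, or 24.5% of it. They covered 43.8% of the left arm, 17.1% of the right arm and 18.7% of the centre. These gaps were assigned to a section by their middle. Within a single replicate list, gaps of at least 50 kb took up more of each section: 53.4% of the left arm, 24.3% of the right arm and 26.0% of the centre in replicate 1, and 60.1%, 32.0% and 26.2% in replicate 2. The left arm had the largest share in each list. A stretch without a peak is one in which nothing passed the authors' calling.

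The longest gap, however, lay in the dense right arm. It ran over 145288 bp from 14608473 to 14753760. It was followed by gaps of 126117 bp at 1502012 to 1628128 and of 124973 bp at 732695 to 857667, both in the left arm, and of 117755 bp at 12341708 to 12459462 in the right arm. Neither replicate had a peak with its midpoint in any of these 4 gaps. The peaks at the left edge of each of these gaps were weak, with scores of 5.19, 4.07, 6.70 and 9.60. The peaks at the right edges of the 2 gaps in the left arm were weak too, with scores of 3.81 and 5.43. At the right edges of the 2 gaps in the right arm stood strong peaks with scores of 63.6 and 66.9.

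At the opposite end of the scale were tight runs of peaks. With neighbours under 2000 bp apart joined, 560 peaks of II stood alone, 292 were in pairs, 209 in runs of 3 or 4 and 88 in 11 runs of 5 or more. These longer runs held 7.66% of the peaks on II, against 10.1% on the other autosomes. The order was the opposite in replicate 1, with 8.03% on II against 5.19%, and the shares were close in replicate 2, with 5.34% against 5.98%. Of the 11 runs, 5 lay in the centre, 1 in the left arm and 5 in the right arm. In the series-wide list, both of the runs with the most peaks held 17, where the largest run of the other autosomes held 15.

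Neither of these 17-peak runs contained a single higher-scored peak. The run at 14598720 to 14608472 spanned 9753 bp in the right arm and ended where the longest gap of the chromosome began. Its peaks scored 1.79 to 9.48, with a median of 3.39 and a median width of 267 bp. Replicate 1 had 6 peaks there and replicate 2 had 6, and of the 17 series-wide peaks 1 was in both replicates and 5 were in neither. The run at 9808046 to 9824649 spanned 16604 bp in the centre, and peaks covered 76.6% of it. Its 17 peaks scored 1.81 to 11.7 and had a median width of 730 bp, where all lower-scored peaks on II had 230.5 bp. The replicates also saw it as a run, with 19 peaks in replicate 1 and 16 in replicate 2, and 8 of its series-wide peaks were in both. Both runs thus consist of low-scored peaks, and they differ in their support in the replicates.

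The next 2 runs included strong peaks. The run at 10541686 to 10552441 in the centre held 11 peaks over 10756 bp, of which 1 was higher-scored (64.7) and 5 were in both replicates. The run at 13817700 to 13829842 in the right arm held 8 peaks over 12143 bp, and 7 of them were higher-scored, with medians of 35.5 for the score and 903 bp for the width. Of these 8 peaks, 7 were in both replicates, while replicate 1 split the stretch into 13 peaks and replicate 2 into 7. It began at the right end of a gap of 85099 bp, the twelfth longest on the chromosome.

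Crowded peaks differed from spaced ones in strength. The 589 peaks on II with a neighbour under 2000 bp away had a median score of 10.4, and 45.0% of them were higher-scored. The 395 peaks whose nearest neighbour was 2 to 10 kb away had a median score of 18.8, and 58.2% were higher-scored. The 165 peaks at least 10 kb from any other had a median score of 23.7, and 55.8% were higher-scored. The shares found in both replicates were 55.5% (51.5 to 59.5), 63.3% (58.4 to 67.9) and 60.0% (52.4 to 67.2). They were 53.6%, 64.2% and 59.5% on the other autosomes. On the other autosomes the shares of higher-scored peaks were 44.4%, 57.3% and 52.6%, so the same order of these shares was seen there. The median scores there were 10.1, 18.7 and 14.9, so the most isolated peaks, which had the highest median on II, did not have it there.

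Both ends of the chromosome carried a peak in all 3 lists. The first peak began at base 1 and ended at base 260, with a score of 24.4, and was followed by 18339 bp without a peak. It scored 17.7 in replicate 1 and 29.1 in replicate 2. The last peak, at 15279077 to 15279345, scored 19.7, with 14.7 in replicate 1 and 25.6 in replicate 2. The length of the chromosome was taken as the last base under a peak of any list. By construction, at least 1 list therefore reaches it. The last peaks of the series-wide list and of both replicate lists all ended at 15279345. Chromosome ends carry telomeric repeats and the handling of multiply mapping reads is not given, so binding of NURF-1 at the ends is not shown.

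At the section edges, the nearest peaks were alike at the left edge and unlike at the right edge. The edge between the left arm and the centre, at 3819836, fell into a gap of 98669 bp. The last peak outside the centre scored 4.62 and the first inside scored 5.19. At the edge between the centre and the right arm, at 11459509, the last peak inside scored 7.20 and the first outside, 1135 bp wide, scored 89.1. Moving the edges so that all 3 sections had the same length gave a left to right ratio of 0.609.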

How the data were processed

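Per the labels' protocols, frozen worms were ground, crosslinked with EGS and formaldehyde, sonicated, immunoprecipitated and sequenced with an Illumina TruSeq kit. Per the file headers, peaks are on WormBase WS220 and have MACS as their source, and the submitters' processing notes name BWA and ce10. Not given in the sources used here: versions, threshold, control, read filters and the way the series-wide list was made. The lists hold the peak score as deposited by the authors, of unknown scale, used to rank, split and describe peaks within a list, and in correlations between the replicates. Sequencing depth is unknown.

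Python 3.11.15, numpy 2.4.6, pandas 2.3.3, scipy 1.17.1 and matplotlib 3.10.9 were used. The length of chromosome II, 15279345 bp, is the last base under a peak. An overlap needed 1 bp in common. Bins and sections count peaks by their midpoints. Alternatives were single replicate lists, other section edges, stricter overlaps, higher-scored peaks alone, joined neighbours, and leaving out single autosomes, the chromosome ends, the densest bin or large runs. Wilson and exact Poisson 95% intervals cover counting error only. The functions were tested on simulated lists. No test was run: regions are not replicates, and there are 2 ChIP samples. Peaks and stretches are named by a fixed rule: the 4 strongest peaks of each section, the 4 widest, the 4 longest gaps, the 3 fullest and 3 emptiest full 500 kb bins, the 4 largest runs, the first and last peak, and the strongest peak in neither or 1 replicate alone. The twelfth gap and the section edges fall outside it and were chosen after their values were seen. The sections, lists and rule were chosen with earlier results of these data known. No gene annotation or sequence of WS220 was used here, so no peak is assigned to a gene and no sequence is shown.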

Additional observations from a re-analysis of the deposited data

How the results depend on the processing

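Of 42 alternatives to 9 values, 10 left the value within a set range and 32 moved it. Of these, 0 turned a ratio or difference to the other side of 1 or 0. For density ratios, width and gap, the range was the series-wide value plus or minus 1 standard deviation of the replicate values. For shares it was the counting interval. The range for the density of II over the other autosomes was 0.9097 to 0.9101, so each alternative counted as moved. No alternative took lower-scored peaks alone. For these the centre to arm ratio was 0.861 in the series-wide list, 0.904 in replicate 1 and 1.16 in replicate 2. The 3 alternatives that left out runs of 5 or more peaks, the densest bin or 1 Mb at either end were chosen after seeing the data. The left to right ratio (0.528) was 0.532 to 0.597 in single replicates, 0.600 with higher-scored peaks, 0.643 with close neighbours joined, 0.609 with 3 sections of equal length and 0.578 without runs of 5 or more peaks. It was 0.558 without the densest bin and 0.524 without the ends. The centre to arm ratio (1.09) was 1.16 to 1.34 in single replicates, 1.37 with higher-scored peaks, 1.12 with neighbours joined and 1.05 with 3 sections of equal length. The density of II over the other autosomes (0.910) was 0.937 in single replicates, 0.933 with higher-scored peaks and 0.932 with neighbours joined. Without I, III, IV or V in the pool it was 0.983, 0.978, 0.894 and 0.794. The difference in median width (133 bp) was 60 to 101 bp in single replicates, 80.5 bp with higher-scored peaks and 170.5 bp with 3 sections of equal length. The median gap (5159 bp) was 6161 to 8050.5 bp in single replicates, 14914.5 bp with higher-scored peaks and 11698 bp with neighbours joined, as both leave fewer peaks by construction.

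The share of peaks with support in both replicates (58.8%) was 97.3% for higher-scored peaks, 51.3% with at least 200 bp shared and 51.0% with at least 50% of the peak covered. Its excess in the centre (11.7 points) was 0.866 with higher-scored peaks. The share of replicate 1 peaks found in replicate 2 (71.4%) was 99.4%, 57.5% and 64.6% under these settings, and that of replicate 2 peaks found in replicate 1 (85.8%) was 100%, 69.5% and 82.8%. A peak narrower than 200 bp cannot share 200 bp. Support in both replicates cannot be had with 1 replicate left out. No paired analysis was possible because the values come from no test and no input values were analysed. Without read counts, neither depth nor the number of sites below the calling threshold can be judged.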
